A study of Homo sapiens with 6 samples.

Results

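The keratin gene family was followed in RNA-seq libraries of C4-2B-ENZR cells. Its members were taken by name: every gene symbol made of KRT, a number and at most 1 further letter. That rule found 38 of the 17356 gene symbols measured, and each of the 38 was measured in all 6 libraries. The members cover 20 type II and 18 type I keratins, from the simple keratins of glandular epithelium to the hair keratins. C4-2B-ENZR is an enzalutamide-resistant derivative of C4-2B, itself a subline of the prostate cancer line LNCaP. The 2 groups were cells given a negative control siRNA (NC, n = 3) and cells given an siRNA against KIF15, a mitotic kinesin (siKIF15, n = 3). All 6 libraries therefore came from transfected cells of 1 line, and the labels' culture protocol names serum and antibiotics but no enzalutamide. The sources used here do not give the number of siRNAs, their sequences, the time after transfection or whether the 3 libraries of a group were separate cultures. The p-values therefore rest on the spread among these libraries, and that spread may be technical.

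Keratins are the intermediate filament proteins of epithelial cells, and a filament is built from obligate pairs of a type I and a type II chain. Simple epithelia such as the prostate's luminal layer are built on KRT8 with KRT18, often with KRT7, KRT19 or KRT20. Basal layers of stratified and glandular epithelia use KRT5 with KRT14 or KRT15. KRT6A, KRT6B, KRT6C, KRT16 and KRT17 are known as stress or wound keratins, because injured or inflamed epidermis makes them. KRT1, KRT2 and KRT10 belong to the upper layers of the epidermis, and KRT31 to KRT40 with KRT81 to KRT86 to hair and nail. The type II genes lie together on chromosome 12 with KRT18 at one end, and the other type I genes lie together on chromosome 17.

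Every value below is the deposited signal of a gene in a library, which appears to be a gene count brought by the authors to 1 shared library size. Sequencing depth is unknown, so no counting interval is given. A floor far below 1 stood in every NC library for 518 of all genes and in every siKIF15 library for 622, and a printed 0 is this floor, not evidence of absence. Of the keratins, 10 read the floor throughout NC and 5 throughout siKIF15. The summed values of the libraries ranged from 49460840 to 53157388. KIF15 itself had NC values of 366.4, 403.6 and 319 and siKIF15 values of 294.8, 333.1 and 363 (log2 change -0.13 ± 0.14 SE, limma adjusted p = 0.57). The targeted gene was thus not lower by the test, so each rise or fall given here compares libraries labelled as KIF15 knockdown (siKIF15) with NC. KLK3, the gene of the luminal secretory protein PSA, read 67009.5, 62252.7 and 65275.8 across NC and 69391.8, 72705.8 and 64508.2 across siKIF15, so this luminal marker was high in all 6 libraries and its groups overlapped. Markers of leukocytes summed to at most 40.7 in any library.

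Of the 38 keratins, 28 reached a mean of 1 in NC, in siKIF15 or in both and were tested with all other genes (limma on log2(value + 1), Benjamini-Hochberg adjustment over 16548 genes, threshold 0.05). In siKIF15, 12 of the 28 rose and none fell. Over all genes tested, 9.66% rose and 8.33% fell, and 18.0% passed in either direction. Scaling the libraries to equal totals moved that split from 1599 higher and 1379 lower genes to 1205 and 1753, and left 11 keratins higher and none lower. Without siKIF15 1, 8 keratins rose, and without the variance trend of the fit 7 rose and KRT79 fell. The keratin median was a log2 change of 0.41 and that of all genes tested was -0.004. At an unadjusted p under 0.05, 14 tested keratins were higher and none was lower. However, 8 of the 28 tested keratins had a mean of at least 1 in 1 group only, so they had entered the test through the group where they were high. The groups did not overlap for 12 of the 28 tested keratins in the direction of siKIF15 and for 1 in the direction of NC, against 17.7% and 16.2% of all genes tested, with values under 0.5 treated as equal. In bulk RNA, more cells making a keratin and more of its RNA per cell cannot be told apart.

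**Figure D1:**
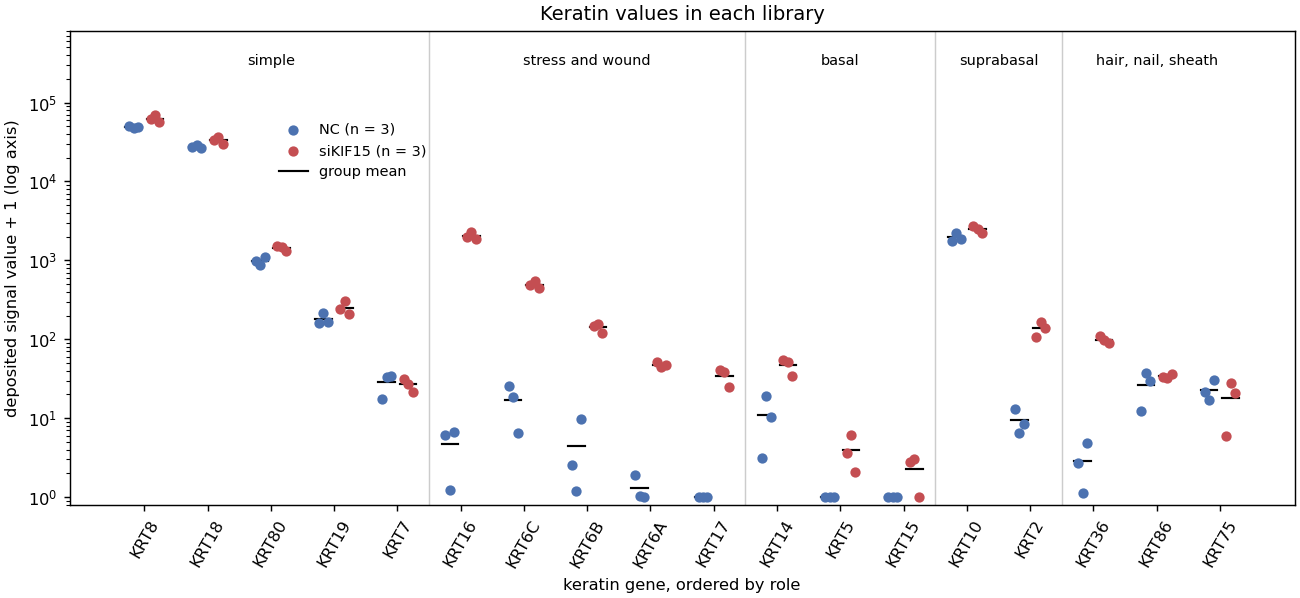
Signal value + 1 (log axis) of 18 keratins in each library, grouped by role, with NC in blue, siKIF15 in red (n = 3 each) and the group mean as a bar. KRT8 and KRT18 lie far above the other keratins in both groups, and the 5 stress and wound keratins and KRT36 lie near the bottom in NC and well apart from it in siKIF15.

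The stress and wound keratins changed most. All 5 members, KRT16, KRT6A, KRT6B, KRT6C and KRT17, rose, with a median log2 change of 5.27, where 9.66% of all genes tested rose. They did not exceed 24.5 in NC and reached between 23.8 and 2284.6 in siKIF15. In all, 139 genes (0.840% of those tested) rose by 3 or more on the log2 scale, 7 keratins among them. KRT17 and KRT6A had a mean under 1 in NC, so these members passed the filter through siKIF15 alone.

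KRT16 (GRCh38 chromosome 17, 41609778 to 41615899, minus strand), the type I partner of KRT6 in injured epidermis, read 5.2, 0.226 and 5.73 across NC and 1989.2, 2284.6 and 1855.1 across siKIF15. Every siKIF15 library was far above every NC library. By limma it rose by 9.1 ± 0.46 on the log2 scale (SE; 95% interval from 8.12 to 10.08; adjusted p = 9.4e-10), which ranked 4 among the 16548 genes tested. Without NC 2, its lowest library, the change was 8.3. KRT17, a type I keratin of skin appendages and of activated keratinocytes, lies next to KRT16 (chromosome 17, 41619441 to 41624842). It read the floor value in all 3 NC libraries, and siKIF15 gave 39.6, 37.5 and 23.8 (log2 change 5.08 ± 0.53 SE, adjusted p = 6.9e-06), and no fold is given against a floor.

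The 3 KRT6 genes are type II partners of KRT16 and KRT17 and lie side by side on chromosome 12 (52446651 to 52493257 from the start of KRT6B to the end of KRT6A, minus strand). KRT6C had the highest values, with 24.5, 17.8 and 5.48 in NC and 484.9, 547 and 447.9 after KIF15 siRNA, a 31-fold difference of means. KRT6B measured 1.57, 0.208 and 8.67 in the NC libraries against 146, 154.4 and 119.8 in the siKIF15 ones. KRT6A was lowest of the 3 in siKIF15, at 50.2, 43.9 and 46.4, and stood at 0.883, 0.0194 and 0 in NC. None of these genes overlapped between the groups. The log2 changes were 5.08 ± 0.37 for KRT6C, 5.5 ± 0.57 for KRT6B and 5.27 ± 0.5 for KRT6A (SE, limma adjusted p = 1e-07, 5.5e-06 and 2.2e-06), and their 95% intervals overlapped. The change of KRT6B was 4.82 without NC 2 and 6.32 without NC 3, and that of KRT6C was 4.49 without NC 3. In the siKIF15 libraries KRT6B amounted to 30.1%, 28.2% and 26.8% of KRT6C, and KRT6A to 10.4%, 8.03% and 10.4%.

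How much of each value belongs to which KRT6 gene is uncertain, because the genes are nearly copies. Over 1692 coding bases, KRT6A and KRT6C were 97.9% identical, KRT6B and KRT6C 98.5%, and KRT6A and KRT6B 97.5% (GENCODE 29 transcripts). Of all stretches of 50 bases in the KRT6C transcript, 44.6% also occurred in KRT6B and 35.5% in KRT6A; of stretches of 100 bases, 24% and 17.8%. A read from such a stretch fits more than 1 of the genes, and how the authors assigned such reads is not stated in the sources used here.

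The basal keratins were low in both groups. KRT14 (chromosome 17, 41582279 to 41586921, minus strand), a type I chain of the basal layer, had NC values of 2.15, 18.1 and 9.47 and siKIF15 values of 54, 51.1 and 33.2. All siKIF15 values were above all NC values, with a 4.66-fold difference of means (log2 change 2.43 ± 0.53 SE, limma adjusted p = 0.0052). The change was 1.71 without NC 1 and 3.0 without NC 2, both past the threshold (adjusted p = 0.013 and 0.0067). It did not pass without siKIF15 1 (2.3, adjusted p = 0.086) or without the variance trend (0.11). KRT5, its type II partner, read the floor value throughout NC, and siKIF15 gave 2.66, 5.17 and 1.06 (adjusted p = 0.13). KRT15, a further basal type I chain, read the floor value throughout NC, and siKIF15 gave 1.81, 2.08 and 0.0101 (adjusted p = 0.46). So 1 of the 3 basal keratins passed the test, where 18.0% of all genes tested passed in either direction.

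KRT14 is closely related to KRT16: they matched at 85.2% of aligned coding bases, against 78.4% for KRT14 and KRT17. Of the stretches of 50 bases in the KRT14 transcript 11.2% occurred in KRT16 too, and 3.77% of those of 100 bases. The value of KRT14 was 2.71%, 2.24% and 1.79% of that of KRT16 in the 3 siKIF15 libraries. KRT14 also shares 8.37% of its stretches of 50 bases with the pseudogene KRT16P6. KRT16 shared 22% of its stretches of 50 bases with other genes, led by the pseudogene KRT16P3 (13%) and KRT14 (11.3%). Of the stretches of 100 bases in KRT16, 7.18% were shared. The part of shared reads in the rises of KRT14 and KRT16 was not tested. Of the aligned coding bases of KRT17, 72.6% matched KRT16. Of its stretches of 50 bases, 16% occurred in another gene, led by the pseudogene KRT17P1 with 9.36%, and 1.62% in another keratin gene; of those of 100 bases, 0.322% occurred in another gene.

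Simple keratins made up nearly all of the keratin signal and rose by small amounts. KRT8 (chromosome 12, 52897187 to 52949954, minus strand), the type II chain of simple epithelia, read 49946.4, 47493.6 and 49619.9 across NC and 62331.1, 69134.2 and 55983.6 across siKIF15. KRT18 (chromosome 12, 52948871 to 52952901, plus strand), its type I partner, measured 27347.6, 28548.2 and 26502.1 in the NC libraries against 33258.2, 36942.2 and 29932 in the siKIF15 ones. For both genes every siKIF15 library was above every NC library, siKIF15 2 was highest and siKIF15 3 lowest. KRT8 rose 1.27-fold (log2 change 0.35 ± 0.08 SE, limma adjusted p = 0.0091) and KRT18 1.22-fold (0.28 ± 0.08, adjusted p = 0.026). KRT8 shared 32.7% of its stretches of 50 bases with other genes, led by the pseudogene KRT8P3 (19%). KRT18 shared 31.8%, led by the pseudogene KRT18P11 (9.98%). Of stretches of 100 bases, KRT8 shared 5.92% and KRT18 0%. The part of shared reads in these 2 rises was not tested.

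KRT80, a type II keratin of many epithelia, had NC values of 987.3, 868.2 and 1089 and siKIF15 values of 1505.5, 1487 and 1301.1. Its groups did not overlap, 0.42% of its stretches of 50 bases occurred in another gene, and it rose 1.46-fold (log2 change 0.55 ± 0.1 SE, limma adjusted p = 0.0016). KRT19, a type I simple keratin, read 161.7, 214.6 and 163.8 across NC and 240.6, 300.4 and 206.5 across siKIF15. Its lowest siKIF15 value lay below its highest NC value, and the change of 0.46 (95% interval 0.08 to 0.85) missed the threshold (adjusted p = 0.093), but passed without siKIF15 3 (0.59, adjusted p = 0.026). KRT7 measured 16.5, 32.7 and 33.3 in the NC libraries against 30.6, 26.1 and 20.7 in the siKIF15 ones, with a change of -0.04 (95% interval -0.81 to 0.73, adjusted p = 0.96). KRT20 and KRT23 were under the filter, and KRT20 read the floor in each NC library and 1.85, 0.007 and 0.00505 across siKIF15. In all, 3 of the 5 simple keratins tested rose and none fell, where 9.66% of all genes tested rose and 8.33% fell.

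Of the small rises, KRT8, KRT18 and KRT10 lost their calls without some single libraries, and KRT80 kept its call in each such fit. Without siKIF15 2 the changes of KRT8 and KRT18 were 0.27 and 0.2, and without siKIF15 3 they were 0.42 and 0.35. KRT18 did not pass in fits lacking siKIF15 1 or siKIF15 2 (log2 changes 0.28 and 0.2, adjusted p = 0.14 and 0.073), or lacking NC 1, NC 2 or NC 3 (0.27, 0.3 and 0.25, adjusted p = 0.1, 0.083 and 0.13). KRT8 did not pass without NC 2 or siKIF15 1 (0.32 and 0.34, adjusted p = 0.078 and 0.083). The 12 keratins that rose had transcripts of 52% to 61.8% GC, where the median of genes tested was 50%. Across 13376 genes, which are not independent replicates, GC content had Spearman correlations of 0.44, 0.43 and -0.63 with the departures of siKIF15 1, 2 and 3 from their mean. siKIF15 3 was the lowest siKIF15 library for 10 of the 12 keratins and the highest for none. Its summed value of 50360191 was also the smallest of that group, against 52035293 in siKIF15 1 and 53157388 in siKIF15 2. How many of all genes had the same order was not counted. In a fit corrected for GC and length, added after the data were seen, the change of KRT8 was 0.22 (adjusted p = 0.00076), that of KRT80 0.47 (adjusted p = 0.0003), and that of KRT18 0.1, no longer past the threshold (adjusted p = 0.12). In that fit the changes of KRT16 and KRT6C were 8.94 and 4.96.

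**Figure D2:**
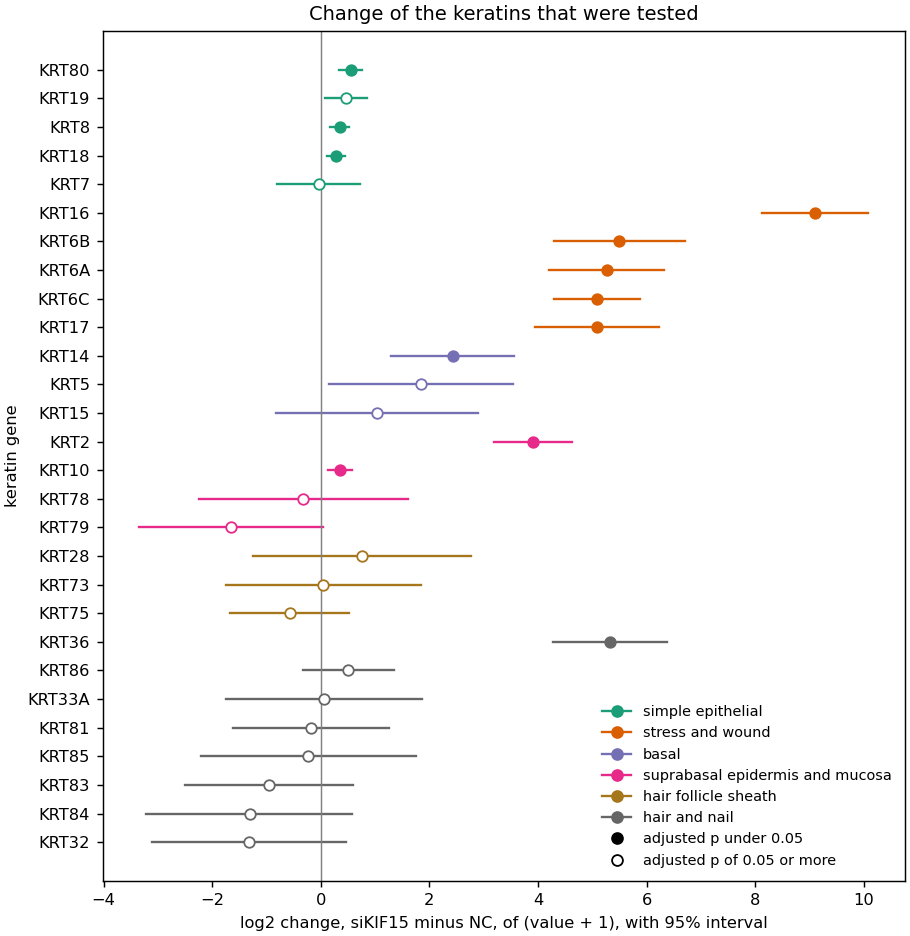
Log2 change of value + 1, siKIF15 minus NC, with its 95% interval (horizontal line) for the 28 keratins tested, coloured by role. Filled points passed an adjusted p of 0.05. All 12 filled points lie to the right of 0, between 0.28 for KRT18 and 9.1 for KRT16, and the wide intervals belong to genes near the floor.

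Per kilobase of transcript, the scale on which levels of different genes can be set side by side, KRT8 and KRT18 stood first in both groups. KRT8 held 54.9% ± 1.6 of the summed keratin level in NC and 54.2% ± 0.093 in siKIF15 (SD, n = 3), and KRT18 held 41.8% ± 1.4 and 39.4% ± 0.098. Together they held 96.4% to 97% in NC and 93.4% to 93.8% in siKIF15, so the groups did not overlap. Stress and wound keratins held 0.019% to 0.0354% in NC and 2.83% to 2.9% in siKIF15. In siKIF15 the level of KRT16 per kilobase, 1242.7 ± 133.7, was close to that of KRT10, 1166.3 ± 124.1, within their spread, whereas in NC they were 2.26 ± 1.85 and 917.3 ± 122. The summed level of all keratins was 42017.1 ± 309.2 in NC and 54228.9 ± 5647.2 in siKIF15.

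The ratio of a type I chain to its type II partner within a library does not depend on how libraries were scaled, apart from the pseudocount of 1. Such ratios were compared for 5 pairs by a 2-sided exact permutation test over the 6 libraries. Its smallest possible p is 0.1, so no pair could pass 0.05. The log2 ratio of KRT18 to KRT8 was -0.87, -0.73 and -0.9 in NC and -0.91, -0.9 and -0.9 in siKIF15, a difference of -0.07 (exact p = 0.3, adjusted over the 5 pairs 0.5). KRT18 and KRT8 therefore moved by nearly the same factor in the siKIF15 libraries, although their levels ranged from 29932 to 36942.2 and from 55983.6 to 69134.2 there. The log2 ratio of KRT16 to KRT6A was 1.72, 0.27 and 2.75 in NC and 5.28, 5.67 and 5.29 in siKIF15, a difference of 3.83 at the smallest possible p (exact p = 0.1, adjusted 0.5). KRT6A was at or near the floor in NC, so the NC ratio depends on the pseudocount: the difference was 3.37 with a pseudocount of 0.5 and 4.76 with 8. The ratios of KRT19 to KRT7, KRT14 to KRT5 and KRT17 to KRT6B differed by 0.5, 0.58 and -0.41 (exact p = 0.2, 0.7 and 0.7, adjusted 0.5, 0.7 and 0.7). The first of these was 0.75 without NC 1 and 0.27 without NC 3. The sign of the other 2 changed without NC 1 (-0.14 for KRT14 to KRT5) or NC 2 (0.27 for KRT17 to KRT6B) and with a pseudocount of 0.5 (-0.07 and 0.18), and KRT5 and KRT17 were at the floor in NC.

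Among keratins of the upper epidermis and of hair, 3 rose. KRT2 (chromosome 12, 52644558 to 52652164, minus strand), a type II chain of the late epidermis, had NC values of 12.2, 5.5 and 7.55 and siKIF15 values of 106.7, 165.7 and 136.2. That was a 16.2-fold difference of means with no overlap (log2 change 3.9 ± 0.33 SE, limma adjusted p = 6.8e-07). KRT36 (chromosome 17, 41486136 to 41492546, minus strand), a type I keratin of the hair group, read 1.67, 0.115 and 3.84 across NC and 107.7, 96.1 and 87.8 across siKIF15 (log2 change 5.33 ± 0.49 SE, adjusted p = 1.6e-06). KRT36 was the only 1 of 8 hair and nail keratins tested that passed. Of 4 epidermal and mucosal keratins tested, KRT2 and KRT10 passed. Over all genes tested, 9.66% rose and 18.0% passed in either direction. The count of hair and nail keratins was near these shares.

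Neither KRT2 nor KRT36 shared a single stretch of 50 bases with the transcript of any other gene, so identical copies of KRT6 or KRT16 sequence were not present in them at that length. The same was true of KRT10 (chromosome 17, 40818117 to 40822595, minus strand), the type I chain of the upper epidermis. KRT10 measured 1738.7, 2238.2 and 1868.4 in the NC libraries against 2730, 2497.9 and 2203.8 in the siKIF15 ones, so siKIF15 3 lay below NC 2. It rose 1.27-fold (log2 change 0.35 ± 0.1 SE, limma adjusted p = 0.027), and it did not pass in fits lacking siKIF15 1 or siKIF15 2 (changes of 0.28 and 0.34, adjusted p = 0.2 and 0.052), or lacking NC 1 or NC 3 (0.27 and 0.32, adjusted p = 0.16 and 0.11), or with libraries scaled to equal totals (0.073).

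The remaining keratins stayed low or did not pass. KRT86 had NC values of 11.2, 35.9 and 28.5 and siKIF15 values of 32.2, 31.4 and 35.1 (adjusted p = 0.42). KRT75, a hair follicle keratin, had 20.4, 16.1 and 29.5 in NC and 4.9, 26.9 and 19.6 after KIF15 siRNA (adjusted p = 0.5). Both overlapped between groups. KRT83 ranged from 2.7 to 16.8 in NC and from 1.08 to 11.3 in siKIF15 (adjusted p = 0.41). KRT79, an epidermal type II keratin, stood at 1.65, 1.41 and 3.83 in NC and was at the floor in siKIF15. It was the 1 tested keratin with all NC values above all siKIF15 values, at a change of -1.65 (95% interval -3.34 to 0.04, adjusted p = 0.17). KRT28, KRT32, KRT33A, KRT73, KRT78, KRT81, KRT84 and KRT85 did not exceed 8.64 in any library, and none passed (adjusted p from 0.31 to 0.98). The 10 keratins under the filter, KRT1, KRT3, KRT12, KRT20, KRT23, KRT25, KRT33B, KRT34, KRT37 and KRT72, did not exceed 2.06 in any library.

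In chromosomal order, 5 of the 7 keratins that rose by 3 or more lay in 2 runs, and KRT2 and KRT36 stood alone. On chromosome 12, KRT6B, KRT6C and KRT6A are consecutive protein-coding genes and rose by 5.5, 5.08 and 5.27, while their tested neighbours KRT75 on one side and KRT5 on the other stood at -0.57 and 1.85 without passing. KRT2 rose by 3.9 beside KRT73 (0.04, adjusted p = 0.98). On chromosome 17, KRT14, KRT16 and KRT17 are consecutive in the same sense and rose by 2.43, 9.1 and 5.08. KRT36 stood apart from them, with KRT15 and KRT19 between, neither of which passed. KRT13 and KRT9 also lie between and were not measured. Of 18 keratins tested in the chromosome 12 cluster 7 rose, and of 10 in the chromosome 17 cluster 5 rose, beside 9.66% of all genes tested. Among the 5 nearest tested genes that are not keratins on each side, 3 of 10 rose and 2 fell around the chromosome 12 cluster, with IGFBP6 highest at 3.6, and 2 of 10 rose and none fell around the chromosome 17 cluster. These flanking counts are small, and 9.66% of all genes rose and 8.33% fell. None of the 5 nearest tested genes beyond KRT17, among them the plakoglobin gene JUP (0.2, adjusted p = 0.067), passed.

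**Figure D3:**
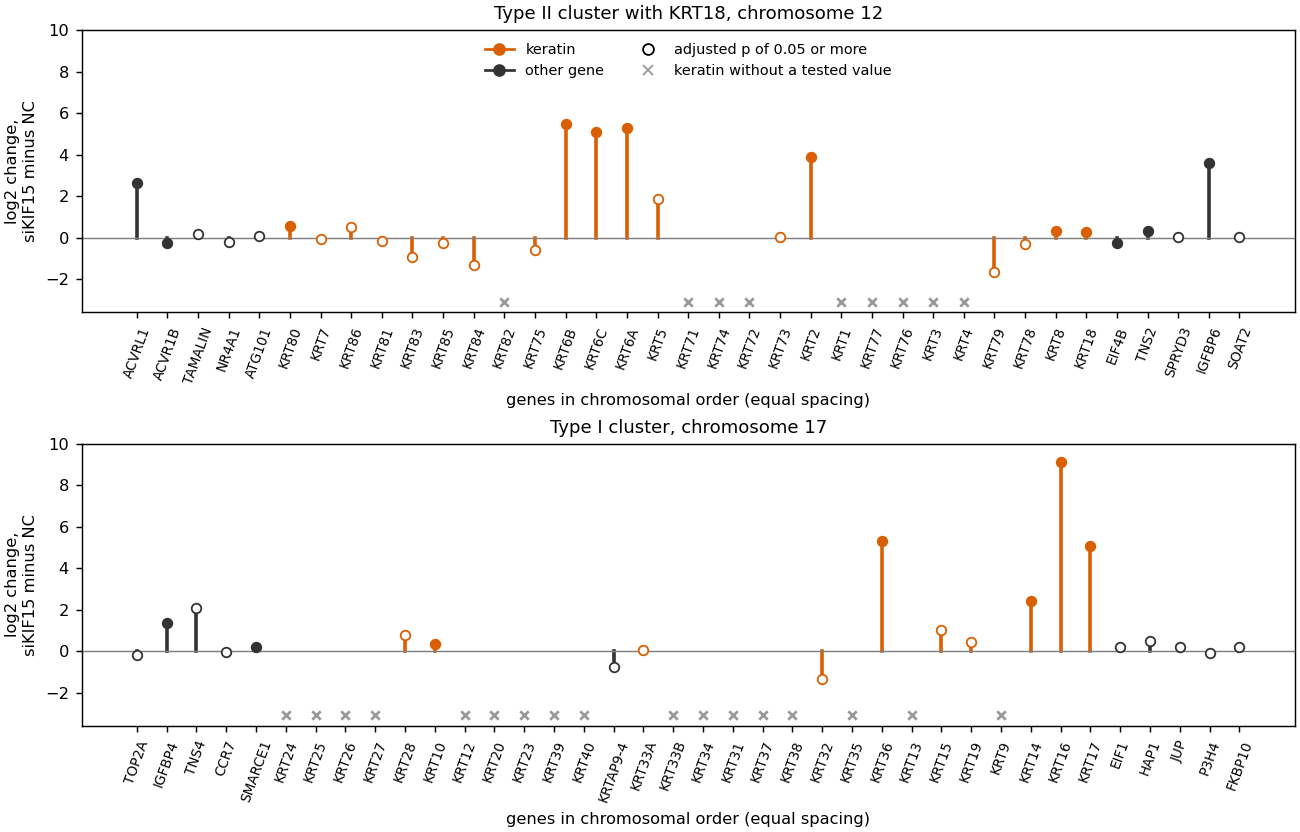
Log2 change, siKIF15 minus NC, of keratins (orange) and of other tested genes (black) in chromosomal order. The chromosome 12 cluster is above and the chromosome 17 cluster below. The other genes are the 5 nearest tested on either side and KRTAP9-4, which lies inside the chromosome 17 cluster. Filled points passed an adjusted p of 0.05 and crosses are keratins without a tested value. The KRT6 genes form 1 run and KRT14, KRT16 and KRT17 another, and the tested keratins nearest to the runs did not pass.

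RefSeq promoter windows of 300 bases, from 250 before to 50 after a start site (GRCh38.p14), were matched for 20 of the 38 keratins and for 4 of the 12 that rose: KRT2, KRT8, KRT10 and KRT36. They were searched on both strands for a STAT site (TTCNNNGAA), an interferon-stimulated response element (GAAA, any 2 bases, GAAA), an AP-1 site (TGANTCA) and a kappa B site (GGG, any 2 bases, TTTCC; or GGGA, any 2 bases, TTCC). No keratin window held more than 1 of these patterns. Over all 35116 windows, 7.66%, 3.57%, 7.71% and 2.94% held these patterns. Among the 21 windows of keratins, 2 held the response element pattern, those of KRT10 and of KRT12, which was under the filter, and none held the other patterns. The upstream 250 bases of the genes with the largest rises that had a window, KRT36 and KRT2, and of KRT10 are shown with matches in capitals, each on the minus strand, at chr17:41489911-41490160, chr12:52652212-52652461 and chr17:40822615-40822864.
KRT36: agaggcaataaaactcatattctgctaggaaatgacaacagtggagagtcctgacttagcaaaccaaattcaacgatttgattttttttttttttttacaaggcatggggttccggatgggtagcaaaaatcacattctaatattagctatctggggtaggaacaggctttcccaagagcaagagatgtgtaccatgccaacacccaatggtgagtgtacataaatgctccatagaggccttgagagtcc
KRT2: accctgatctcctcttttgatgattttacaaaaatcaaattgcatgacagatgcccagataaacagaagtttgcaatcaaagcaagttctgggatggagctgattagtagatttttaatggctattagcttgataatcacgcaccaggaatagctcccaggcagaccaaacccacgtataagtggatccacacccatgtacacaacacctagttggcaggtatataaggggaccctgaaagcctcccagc
KRT10: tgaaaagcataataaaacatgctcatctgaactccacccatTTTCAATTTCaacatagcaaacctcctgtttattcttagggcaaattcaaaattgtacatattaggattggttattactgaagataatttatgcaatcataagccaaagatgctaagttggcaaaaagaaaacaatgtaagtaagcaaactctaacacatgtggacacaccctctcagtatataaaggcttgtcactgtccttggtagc
The KRT10 match begins 209 bases before the start site. A match is a run of letters and not a shown binding site, and the absence of a match says only that these letters are not in the window. The windows of KRT8 and KRT36 lie inside the gene spans given above, at a start site other than the outermost one. They say nothing of other start sites of these genes.

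Desmosomes anchor keratins at cell junctions, and of 9 desmosome genes tested 1 rose and 1 fell (median log2 change 0.14), where 18.0% of all genes tested passed in either direction. PERP, a desmosomal membrane protein gene, rose from 3328.9, 3376.1 and 3258.5 to 6789.1, 7192 and 7673.4 (1.12 ± 0.07 SE, limma adjusted p = 1.4e-08). DSG2, the desmoglein of simple epithelia, fell from 3238.3, 3344 and 3252.8 to 2495, 2092.1 and 2828.6 (-0.42 ± 0.09, adjusted p = 0.0063). DSP, the desmoplakin gene that ties keratins to the junction, did not pass (0.09, adjusted p = 0.59).

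Of 14 genes for linkers and keratin-binding proteins, SFN and FBF1 rose and DST fell (median -0.03), again beside 18.0% of all genes passing. SFN encodes 14-3-3 sigma, which binds KRT17, and it moved most: from 22.5, 37.9 and 37.1 to 1115.6, 1369.7 and 1086.5 (log2 change 5.18 ± 0.2 SE, limma adjusted p = 2.9e-11). FBF1 rose by 0.42 and the cytolinker gene DST fell by 0.69. Of 12 other intermediate filament genes, the lamin genes LMNA and LMNB2 rose by 0.33 and 0.2 (median -0.08), beside the same 18.0%. VIM, the mesenchymal filament gene, did not pass (-0.31, adjusted p = 0.46).

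Cornified envelope genes build the protein shell of dying keratinocytes. Of 12 tested 4 rose and none fell, where 9.66% of all genes rose and 8.33% fell. Their median was -0.1, and 4 of the 12 had a mean of at least 1 in 1 group only. TGM1, the crosslinking transglutaminase, rose from 76.4, 89.6 and 98.7 to 278.3, 275.7 and 287.8 (log2 change 1.67 ± 0.17 SE, limma adjusted p = 6e-06). IVL, the envelope precursor involucrin, rose by 1.36, CNFN by 0.59 and CSTA by 0.46. LOR, the loricrin gene, stood at 4.65 in NC 2 and at the floor in the other 5 libraries.

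Among transcription factor genes known to act on keratin promoters, KLF4, a factor of epidermal differentiation, rose from 1230.4, 1087.7 and 1101.9 to 8758.1, 9035.1 and 8673.3 (log2 change 2.95 ± 0.07 SE, limma adjusted p = 1.1e-13). CEBPD rose by 1.03, JUNB by 0.54 and FOSL2 by 0.46, and JUN, ELF3 and STAT3 rose by 0.42, 0.4 and 0.39. KLF5, FOS and MYC fell by 0.45, 0.49 and 0.25. TP63, the master factor of basal cells, did not exceed 4.13 in any library and did not pass (adjusted p = 0.62).

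Markers of the cells that normally make stress and basal keratins moved only in part with them. Of 6 basal epithelial markers tested, COL17A1, ITGB4 and KRT14 rose and ITGA6 fell, while TP63 and KRT5 did not pass. Of these 6, 2 had a mean of at least 1 in 1 group only. Over all genes tested, 9.66% rose and 8.33% fell. The sum of these 6 markers was 6492.2 to 6901.1 in NC and 6375.4 to 7089.9 in siKIF15, so the groups overlapped. That sum is almost wholly ITGA6, with a mean of 4340.8 in NC and 3445.2 in siKIF15, and ITGB4, with 2358.8 and 3073.5, which moved in opposite directions. KRT14 and KRT5 in this list are themselves keratins. COL17A1, a hemidesmosome collagen gene, read 13.8, 6.97 and 14.3 across NC and 220.9, 247.4 and 220.8 across siKIF15. Of 5 keratinocyte markers KRT10 and IVL rose, LOR did not pass, and KRT1 and DSG1, which did not exceed 2.06, were under the filter. The summed keratinocyte markers ranged from 1785.5 to 2272.9 in NC and from 2301.8 to 2825.9 in siKIF15, nearly all of it KRT10. Fibroblast markers summed to 487.6 to 529.8 in NC and to 452 to 501.1 in siKIF15, and endothelial markers to 313.3 to 334.2 and to 318 to 414.5. The part of any of these markers in the keratin results was not tested.

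**Figure D4:**
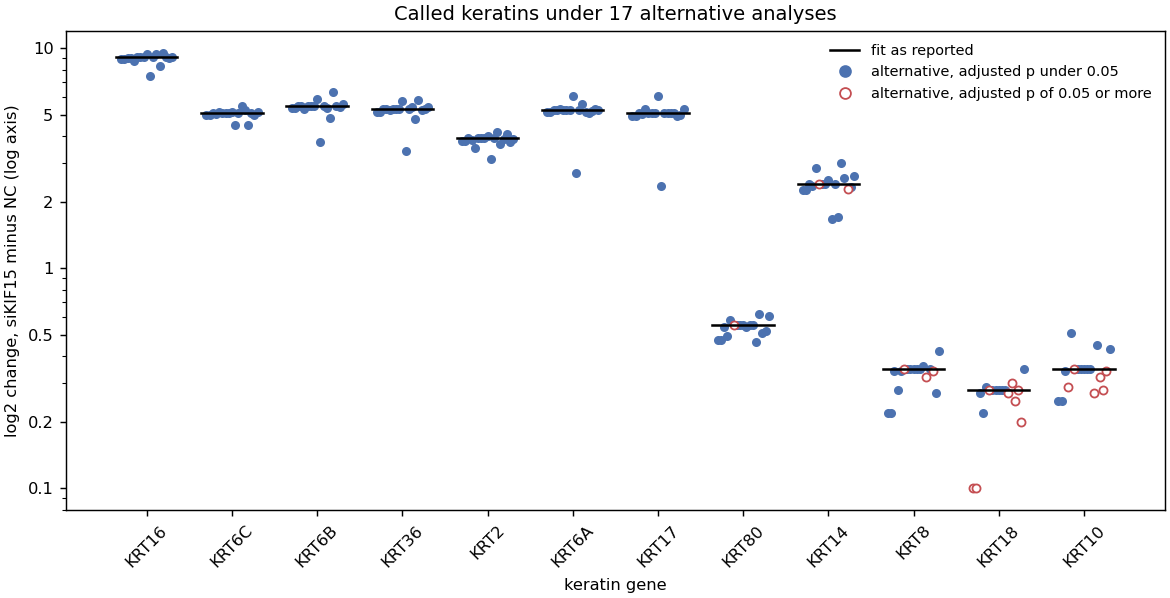
Log2 change, siKIF15 minus NC (log axis), of the 12 keratins that rose, under each of 17 alternative analyses (points) beside the fit as reported (bar). Open points are alternatives in which the adjusted p was 0.05 or more. KRT16, KRT6A, KRT6B, KRT6C, KRT17, KRT2 and KRT36 have no open point, and KRT18 has 8.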

How the data were processed

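Each deposited file gives a signal for every gene symbol of 1 library, which the authors appear to have made from gene counts adjusted to a common library size; this is read from the values, since no header states a unit. Per the submitters' processing notes, the aligner was Bowtie 0.12.2, and the builds named are the mouse ones mm9 and mm8, although the cells are human; a human build, the annotation, the counting and the adjustment are not given in the sources used here. Groups and replicate numbers came from the sample titles.

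All 6 libraries entered 1 limma fit (limma 3.58.1, R 4.3.3, variance trend, no covariate) on log2(value + 1), over genes whose mean reached 1 in NC, in siKIF15 or in both, with Benjamini-Hochberg adjustment and a threshold of 0.05. This scale understates changes of low genes. The fit was tested on simulated data. The 17 alternatives changed the pseudocount, the filter, the scaling, the variance model, the replicate block, single libraries and, added after the data were seen, GC content and transcript length (known for 96.6% of symbols). Partner ratios were compared by exact permutation. Transcripts and positions came from GENCODE 29 (GRCh38), matched by symbol, with 1 protein-coding transcript per gene. The keratins and the other lists were chosen with earlier results of these data known. Every tested keratin is named; values in every library are given for those past the threshold and for a fixed set of simple, basal and stress keratins, and of other lists for at most the 4 members with the smallest adjusted p, with any further gene chosen after its values were seen. Some genes of the lists and some sequences are not reported here.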

Additional observations from a re-analysis of the deposited data

How the results depend on the processing

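Of the 12 keratins that rose, 7 (KRT16, KRT6C, KRT6B, KRT36, KRT2, KRT6A and KRT17) kept direction and call in all 17 alternatives. A pseudocount of 8 lowered the log2 changes of KRT6A, KRT17 and KRT36 to 2.72, 2.36 and 3.43, as adding a larger constant to low values does by construction. Without the variance trend 7 keratins rose, 1 fell (KRT79) and 1070 genes were called in all; KRT80, KRT14, KRT8, KRT18 and KRT10 were then lost. With array weights 15 rose and 2 fell (KRT75 and KRT79), of 7502 genes called, though the estimate of the weights stopped before it converged. Leaving out single libraries gave 8 to 13 keratins higher, none lower, medians of 0.34 to 0.6 and 1184 to 5077 genes called; KRT14 was lost without siKIF15 1 (adjusted p = 0.086) and KRT19 was gained without siKIF15 3 (0.026). With a mean of at least 10 in 1 group the keratin median was 1.49, over 16 keratins, some of which reached that mean only through siKIF15. Scaled to equal totals, 1205 genes were higher and 1753 lower, against 1599 and 1379 as reported. Corrected for GC content and length, 4418 genes were called and 11 keratins rose. The cause of these differences was not tested.

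The deviations of same-numbered libraries showed no pairing, with correlations of 0.0332, -0.0571 and 0.0153. Single libraries also departed from their group mean with GC content, which could mask a pairing. These correlations therefore do not settle whether replicate numbers pair the libraries. With the replicate block 12 keratins rose, none fell and 3184 genes were called, and with the GC and length correction and the replicate block 11 rose and 4528 genes were called.

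Keratins that did not pass changed sign under some alternatives, none of them past the threshold. Leaving out single libraries gave ranges of -0.36 to 0.13 for KRT7, -1.02 to 0.1 for KRT75, -0.62 to 0.75 for KRT33A, -0.53 to 0.62 for KRT73, -1.1 to 0.08 for KRT78, -0.62 to 0.3 for KRT81 and -0.77 to 0.04 for KRT85. With array weights KRT32, KRT7 and KRT81 were 0.03, 0.24 and 0.45, and after the GC and length correction, with or without the block, KRT33A and KRT73 were -0.15 and -0.08. The ratio of KRT14 to KRT5 ranged from -0.14 to 1.16 and that of KRT17 to KRT6B from -1.23 to 0.27 without single libraries, and with a pseudocount of 0.5 they were -0.07 and 0.18. Depth is unknown, so the counting error of values of a few units near the floor cannot be given.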
